A study of Mus musculus with 2 samples.

Results

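Collagens and laminins, the chain-forming proteins of fibrils and basement membranes, were followed in mouse brain. Members were all genes of the deposited gene table whose symbol is that of a numbered collagen alpha chain (Col1a1 to Col27a1) or of a laminin alpha, beta or gamma chain. The rule found 40 of 13381 genes, namely 31 collagens and 9 laminins. It reads symbols only, but the table itself holds no gene below 0.501 FPKM in both libraries. By class, 10 were fibrillar collagens, 14 belonged to the basement membrane (type IV chains, Col15a1, Col18a1 and the laminins) and 16 were other collagens. A further 15 genes that GENCODE M21 names by the same pattern, among them Col2a1, Col4a3, Col4a4, Lama1 and Lamb3, were not analysed here.

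The study addressed brain tissue injury caused by lipopolysaccharide (LPS), a bacterial cell wall product and strong inflammatory stimulus, and the part of the microRNA miR-7 in it. Brain RNA was measured in 2 libraries, 1 titled miR-7KD (animal number 3) and 1 titled WT (animal number 7), both from C57BL/6J mice with a labelled age of 6 to 8 weeks. The study's methods give an older range for both kinds of mouse, starting at 8 weeks. The LPS injection is given by the study's methods for both kinds of mouse and is not named in the labels, and the sources used here do not say how miR-7 was made deficient. The values are FPKM (fragments scaled to transcript length and to the mapped fragments of the library), a measure per length that allows levels of different genes to be set side by side.

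The titles contradict the other labels. In the genotype field, wild type stands for the animal whose title says miR-7KD, and miR-7 KD for the animal whose title says WT, and the descriptions follow the genotype field. Libraries are called here by title alone, and every ratio is that of the miR-7KD-titled library over the WT-titled library. Brain is the labelled tissue, but the extract protocol speaks of retinas. Markers of neurons, oligodendrocytes and astrocytes all reached 1 FPKM in either library, while markers of photoreceptors were not examined. With 1 library per title there is no replicate spread and no test, and whether the RNA of several animals was pooled is not stated. In bulk tissue, fewer cells of a type and less RNA per cell cannot be told apart.

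Collagens are built from alpha chains that wind into a triple helix, and fibrillar collagens assemble further into the ropes that give tissue its tensile strength. Type IV collagen and laminins instead form sheet-like networks, which nidogen and perlecan link into the basement membrane. In the brain such membranes surround every blood vessel and lie under the pia at the surface, and they are made by endothelial cells, pericytes, astrocytes and leptomeningeal fibroblasts, whereas fibrillar collagen is mostly found in the meninges and around larger vessels.

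The most abundant members by gene value, Col4a1 and Col4a2, encode the chains that together form the common type IV collagen of vessels. They lie head to head on chromosome 8 (GRCm38), Col4a1 (ENSMUSG00000031502.11) from 11198423 to 11312826 on the minus strand and Col4a2 (ENSMUSG00000031503.13) from 11312805 to 11449287 on the plus strand. Their 5′ ends overlap by 22 bases, from 11312805 to 11312826. The stretch is printed because both genes begin in it, and because these neighbours differed in the ratio between libraries. It is taken from RefSeq, chr8:11312801-11312830 of GRCm38.p6, read 5′ to 3′ on each gene's strand with the 22 shared bases in capitals.
Col4a2 strand: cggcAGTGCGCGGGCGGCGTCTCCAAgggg
Col4a1 strand: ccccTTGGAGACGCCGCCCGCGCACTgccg
The shared bases hold GGGCGG on the Col4a2 strand, the core of the GC box bound by Sp-family factors. Of the 40 members, 30 had a promoter in the RefSeq table of GRCm38.p6, which covers 250 bases before to 50 bases after each start. GGGCGG was present on either strand in 22 of the 30 (73.3%), against 64.4% of the 10203 promoters of genes in the gene table and 35.9% of all 27025 promoters. CCAAT was found in 12 of 30, against 38.3% of promoters of listed genes. TATAAA was found in 2 (Col11a2 and Col3a1, 6.67%), both fibrillar, against 6.86% of promoters of listed genes. None of these motifs contains another, and a match is a description of the letters in these windows.

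The members were mostly low in whole brain. The higher of both libraries was at 5 FPKM or more for 6 members, from 2 to 5 for 8, from 1 to 2 for 13 and from 0.5 to 1 for 13, and no member was listed at 0. The lowest maximum in the whole table was 0.501 FPKM, so genes below that level are not in it. Summed over all 40 members, FPKM came to 124 in the miR-7KD-titled library and 110 in the WT-titled library, which is 0.0752% and 0.0674% of all FPKM. Basement membrane members supplied the largest share of the sum of both libraries, with 65.2 and 56.4 FPKM, followed by other collagens with 42.9 and 39 FPKM. Fibrillar collagens supplied 15.9 and 14.5 FPKM.

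**Figure D1:**
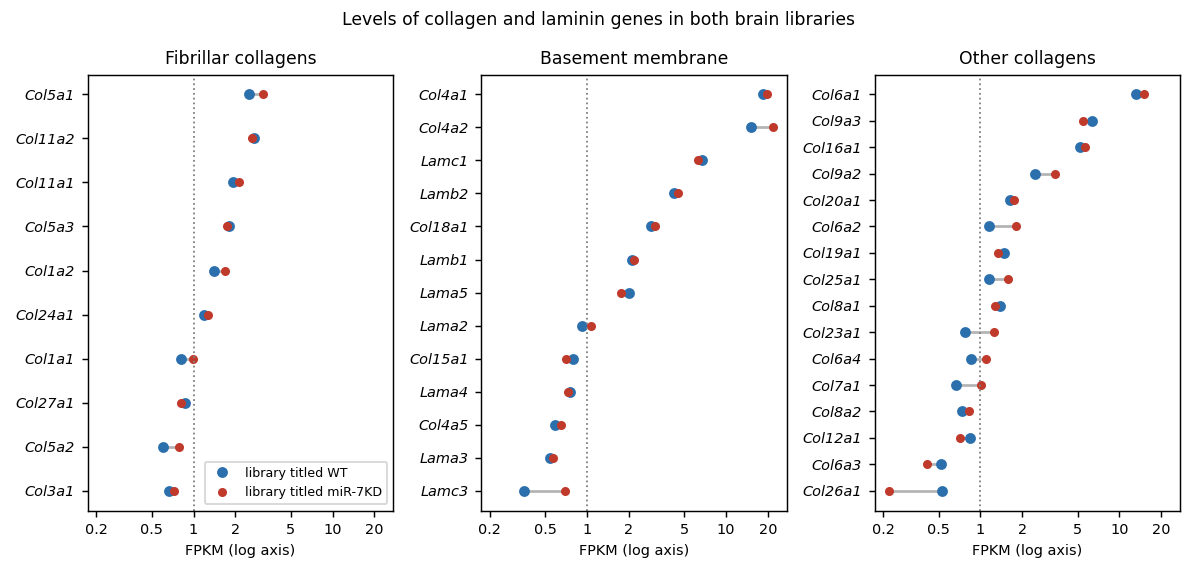
FPKM (log axis) of 39 of the 40 members in the miR-7KD-titled library (red) and the WT-titled library (blue), by class and ordered by mean level. The dotted line marks 1 FPKM. The points of most genes lie close together, Col4a1 and Col4a2 stand at the top near 20 FPKM, and Col26a1 and Lamc3 show the widest gaps among the genes below 1 FPKM in the panels of other collagens and basement membrane.

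Within the basement membrane class, Col4a1 was at 19.8 FPKM in the miR-7KD-titled library and 18.6 in the WT-titled library, a log2 ratio of 0.09. Col4a2 was at 21.8 and 15.2 FPKM, a log2 ratio of 0.52. By gene value, this chain accounted for most of the higher type IV sum of 42.3 against 34.4 FPKM. That sum was not higher by annotated transcripts, where Col4a1 was at 10.8 and 18.7 FPKM. Nor was it higher with an overlapping unannotated transcript added, which put Col4a1 at 19.8 and 30.2 FPKM. Col4a1 and Col4a2 ranked in the upper part of all genes by mean level, at the 85.9th and 85.4th percentile. Col4a5, an X-linked chain found in a separate type IV trimer, was at only 0.654 and 0.593 FPKM. Col18a1, whose carboxy-terminal fragment is endostatin, was at 3.06 and 2.87 FPKM, and the related Col15a1 was below 1 FPKM in both libraries.

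Laminins are heterotrimers of an alpha, a beta and a gamma chain, and their sum was 19.2 and 18.3 FPKM. Lamc1, the gamma chain of most laminins, was the highest of them at 6.32 and 6.76 FPKM, slightly lower in the miR-7KD-titled library. Lamb2, the beta chain of mature vessels and synapses, was at 4.52 and 4.22 FPKM, and Lamb1 was at 2.17 and 2.09 FPKM. Among the alpha chains, which carry most of the receptor binding, the vascular Lama5 was the most abundant by gene value at 1.75 and 2.01 FPKM. Lama2, the chain of astrocyte and pericyte laminin, was at 1.06 and 0.920 FPKM. With a same-strand unannotated transcript added, Lama2 came to 2.08 FPKM in both libraries, above Lama5. The gene value may already hold reads of that transcript. The endothelial Lama4 and the epithelial Lama3 had gene values below 1 FPKM in both libraries. The sum of annotated transcripts of Lama4 was 1.45 and 1.49 FPKM.

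Lamc3, a gamma chain of laminins at few sites, was at 0.689 and 0.351 FPKM with a log2 ratio of 0.81, and stayed below 1 FPKM. Both values were low, and the reads behind them are not known.

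Which fibrillar collagen was highest depended on the measure and on the library. In the miR-7KD-titled library it was Col5a1 by gene value. By sums of annotated transcripts it was Col1a2 there, at 3.81 FPKM against 3.17 for Col5a1. In the WT-titled library it was Col11a2 by both, with a gene value of 2.70 FPKM against 2.51 for Col5a1. Its transcript sum there was 3.55 FPKM, against 3.21 for Col1a2 and 2.54 for Col5a1. By gene value, Col5a1, the type V chain that starts and limits fibril growth, was at 3.14 and 2.51 FPKM (log2 ratio 0.31). Col11a2 and Col11a1, chains of the related type XI collagen best known from cartilage, were at 2.62 and 2.70 FPKM and at 2.12 and 1.91 FPKM. Col1a2, a chain of the major type I collagen, was at 1.68 and 1.41 FPKM, and its partner Col1a1 reached only 0.995 and 0.815. Col3a1, the chain of type III collagen of vessel walls, was at 0.724 and 0.666 FPKM. All 6 fibrillar collagens at 1 FPKM or more had a log2 ratio between -0.05 and 0.31.

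Of the other collagens, Col6a1 stood far above the rest at 15 and 13.2 FPKM (log2 ratio 0.18). Type VI collagen forms beaded microfilaments beside basement membranes from one chain of each of several genes, yet Col6a2 was at only 1.79 and 1.16 FPKM and Col6a3 at 0.411 and 0.518. Type IX collagens coat the surface of type II fibrils in cartilage and carry interruptions in their helix. Col9a3 was at 5.49 and 6.36 FPKM, the most negative log2 ratio of the members at 1 FPKM or more at -0.21, and Col9a2 was at 3.46 and 2.46 FPKM with a log2 ratio of 0.48. Col16a1, which also belongs to the fibril-associated type, was at 5.66 and 5.20 FPKM. Col25a1, a transmembrane collagen of neurons, was at 1.57 and 1.16 FPKM. Col23a1, another transmembrane collagen, had a log2 ratio of 0.62 with 1.25 and 0.780 FPKM.

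No member passed the 2-fold limit between both libraries. Genes that reached 1 FPKM in either library were compared, and a gene counted as different at a ratio of at least 2-fold with 0.1 added to both values. Of the 27 members that reached 1 FPKM, 0 were higher and 0 were lower by this rule, against 11.6% of all 11969 genes, of which 719 were higher and 668 lower. The share over all genes fell with the number of exons, from 36.1% of genes of 1 to 3 exons to 2.28% of genes of 21 or more exons and 0 of 234 genes of 40 or more. Members had a median of 46 exons against 9 over all genes, and 37 of the 40 had at least 21. A count of 0 in 27 is therefore near the share of other genes with as many exons and is not particular to collagens and laminins.

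The signs were uneven. Of the 27 members, 20 had a positive log2 ratio (74.1%), against 48.0% of all genes and 45.5% of genes of 21 or more exons. Their median was 0.12, with quartiles at 0.01 and 0.36 and a lowest value of -0.21, against a median of -0.01 over all genes and -0.02 over genes of 21 or more exons. By class the median was 0.12 for fibrillar collagens, 0.09 for the basement membrane and 0.25 for other collagens. The last fell to 0.138 with no minimum level, to 0.151 at a minimum of 2 FPKM and to 0.122 at 5 FPKM, close to the median of fibrillar collagens where one could be given (0.124 with no minimum level and 0.143 at 2 FPKM). Over all 40 members, including those below 1 FPKM, 27 were positive and 13 negative and the median was 0.10. The spread (SD across genes, which are not replicates) was 0.28 for the members, 0.98 over all genes and 0.38 over genes of 21 or more exons. The last includes single ratios as far out as -5.12 and 3.64. By the median of the absolute log2 ratio the order was the other way. It was 0.183 for members of 21 or more exons and 0.136 for all genes of 21 or more exons. Whether a shift of this size lies beyond the difference between animals cannot be told from 1 library per title.

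**Figure D2:**
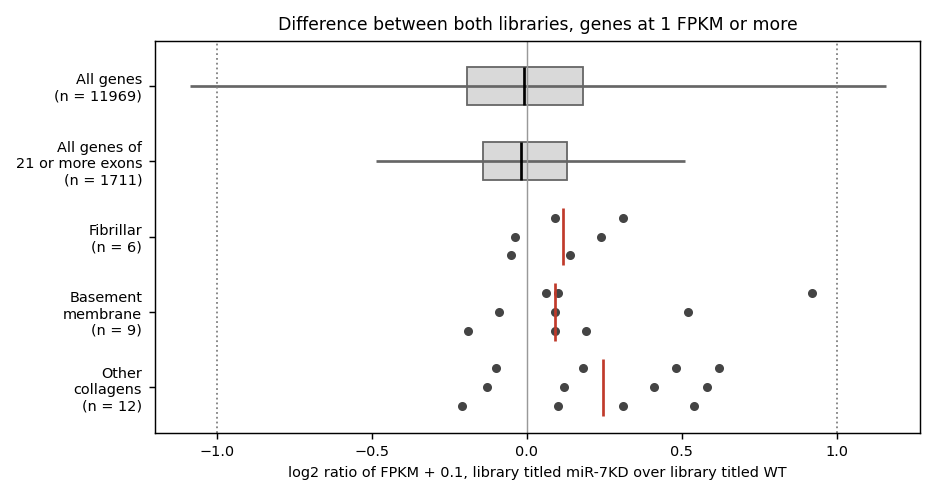
Log2 ratio of FPKM + 0.1, miR-7KD-titled over WT-titled library, for genes at 1 FPKM or more. Boxes give the quartiles and median and lines the 5th to 95th percentiles over all genes and over genes of 21 or more exons, points are members by class, red ticks are class medians, and dotted lines mark a 2-fold difference. All 27 members lie between both dotted lines.

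Just inside the minimum level were Col7a1, the anchoring fibril collagen of skin, with 1.01 and 0.665 FPKM, and Lama2. Just outside were Col1a1 and Col27a1, a fibrillar collagen of cartilage, the latter with 0.808 and 0.875 FPKM. Among the 13 members below 1 FPKM, Col26a1 had the widest gap, with 0.218 FPKM in the miR-7KD-titled library and 0.527 in the WT-titled library. Its log2 ratio was -0.98, still short of 2-fold after 0.1 was added, and its plain ratio was 0.415.

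The balance between chains of the same or of related molecules was compared within each library. Col1a1 over Col1a2 was 0.592 in the miR-7KD-titled library and 0.577 in the WT-titled library, although type I collagen holds more of the alpha 1 chain than of the alpha 2 chain. Col4a1 over Col4a2 was 0.909 and 1.23, so the order of these chains turned between the libraries. Col6a1 over Col6a2 was 8.37 and 11.4, and Col5a1 over Col5a2 was 3.97 and 4.19. Against the gamma chain Lamc1, Lamb2 was at 0.715 and 0.624, Lamb1 at 0.344 and 0.309, and the alpha chains Lama5, Lama2 and Lama4 at 0.277 and 0.298, at 0.168 and 0.136, and at 0.116 and 0.112. Over the 11 pairs of which both chains were in the table, the ratio in the miR-7KD-titled library was 0.735 to 1.23 times that in the WT-titled library. By sums of annotated transcripts the range was wider, 0.404 to 1.22 times. Past 2-fold there were Col4a1 over Col4a2, at 0.484 and 1.20, and Col15a1 over Col18a1, related collagens rather than chains of the same molecule, at 0.136 and 0.273. Such RNA ratios say nothing of the chains in the assembled protein.

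**Figure D3:**
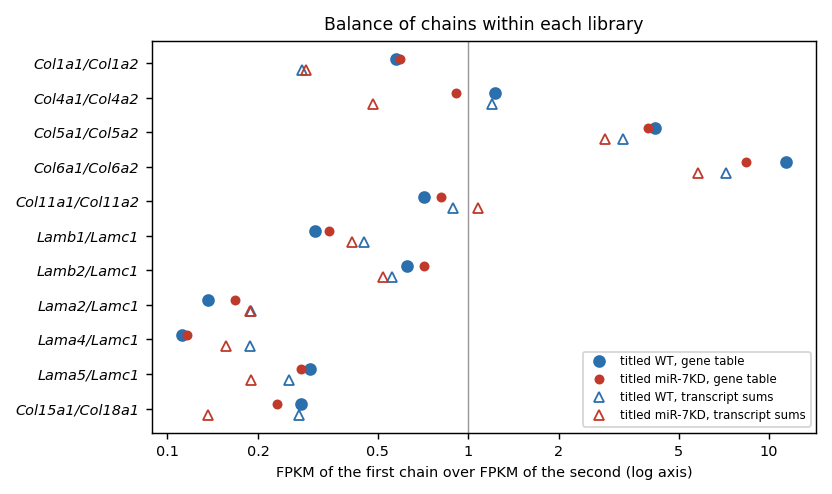
Ratio of FPKM between chains of the same molecule or of related molecules (log axis) in the miR-7KD-titled library (red) and the WT-titled library (blue), from the gene table (filled circles) and from sums of annotated transcripts (open triangles). The circles of a pair lie close together, whereas the triangles lie furthest apart for Col4a1 over Col4a2, at 0.484 and 1.20, and Col15a1 over Col18a1, at 0.136 and 0.273.

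Members that neighbour each other did not share 1 ratio. Col6a1 and Col6a2 lie 85161 bases apart on chromosome 10 and had log2 ratios of 0.18 and 0.58. Col5a2 and Col3a1, divergent fibrillar genes 24614 bases apart on chromosome 1, had 0.35 and 0.11. Lama5 and Col9a3, 371930 bases apart on chromosome 2, were alike at -0.19 and -0.21.

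Single transcripts differed between the libraries more often than genes did, for the members as for all genes. The 40 members had 49 annotated transcripts, of which 39 reached 1 FPKM, and 6 of these were at least 2-fold higher and 4 lower. That share, 25.6%, is near the 24.3% of all 18988 transcripts tested and is not particular to the members. The 10 transcripts fell mainly on the 7 members with several listed transcripts, where 6 of 13 were higher and 2 lower, against 29.1% over all genes with several. Among members with 1 listed transcript, 0 of 26 were higher and 2 were lower, against 16% over all such genes. These 2 were Col26a1-004, at 0.395 and 1.34 FPKM, and Col27a1-001, at 0.510 and 1.16 FPKM.

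Several of the higher transcripts stood beside another transcript of the same gene that went the other way. Col11a2-202 was at 1.46 FPKM in the miR-7KD-titled library and listed at 0 in the WT-titled library, and Col11a2-001 was listed at 0 and at 1.34, with Col11a2-201 near level at 1.65 and 1.62. Lamb1-004 was at 1.85 and listed at 0, and Lamb1-001 at 1.93 and 3.57. The gene values of Col11a2 and Lamb1, by contrast, differed by log2 ratios of -0.04 and 0.06. Lamc1-005, a form of 3 exons, was at 2.98 and 0.818 FPKM beside the main Lamc1-001 at 6.24 and 7.11. Col19a1-003 was at 1.27 and 0.343 FPKM beside Col19a1-001 at 1.16 and 2.10. Whether reads were assigned to different isoforms or the isoforms differed was not tested.

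Among annotated transcripts above 0 in both libraries, the widest gap belonged to Col16a1. Its transcript 004 was at 7.91 FPKM in the miR-7KD-titled library and 0.194 in the WT-titled library, a log2 ratio of 4.77, although the gene value was 5.66 and 5.20. In the same span the table of unannotated transcripts held 3 same-strand entries, at 1.51 and 2.83, at 1.57 and 2.12, and at 2.79 and 1.39 FPKM. With these entries added to the gene value, Col16a1 came to 11.5 FPKM in both libraries. The gene value may already hold reads of these entries, so this sum may count them again.

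The gene value and the transcripts of Col4a1 also differed. Its 1 annotated transcript was at 10.8 FPKM in the miR-7KD-titled library and 18.7 in the WT-titled library, a log2 ratio of -0.78, against 0.09 for the gene value. An unannotated entry of 56 exons covers the whole of Col4a1 on the same strand and runs on, antisense, through 85930 bases of Col4a2. It was at 0.00564 FPKM in the miR-7KD-titled library and 11.5 in the WT-titled library, lower in the same library as the annotated transcript. Added to the gene value, it gave 19.8 and 30.2 FPKM, a log2 ratio of -0.60. Here too the gene value may already hold reads of the entry. The sources used here do not say whether reads were counted by strand, so reads of Col4a2 and of this entry may not be separable in the overlap. Col4a2-001 was at 22.3 and 15.6 FPKM, a log2 ratio of 0.52 like that of its gene.

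Unannotated entries on the same strand overlapped 8 members, 12 entries in all, of which 3 were at least 2-fold higher and 4 lower. This is near the 54.4% of all 10238 unannotated transcripts that differed as much. A Col1a2 entry of 52 exons was at 2.69 FPKM and listed at 0 in the WT-titled library, while a Col11a2 entry of 62 exons was listed at 0 in the miR-7KD-titled library and at 3.10 in the other. A Col25a1 entry of 37 exons was at 3.75 and 7.77 FPKM and the annotated Col25a1-002 at 2.19 and 3.41, both lower in the miR-7KD-titled library, whereas the gene value was 1.57 and 1.16. Entries of Col20a1, at 2.54 and 0.0361 and at 3.63 and 0.601 FPKM, begin in the neighbouring gene Arfgap1. Entries over Col19a1 of 2 exons each were at 65.0 and 186 and at 31.8 and 50.8 FPKM, but they also cover 8 pseudogenes, so their reads may come from copies elsewhere and they are uncertain as Col19a1 RNA.

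**Figure D4:**
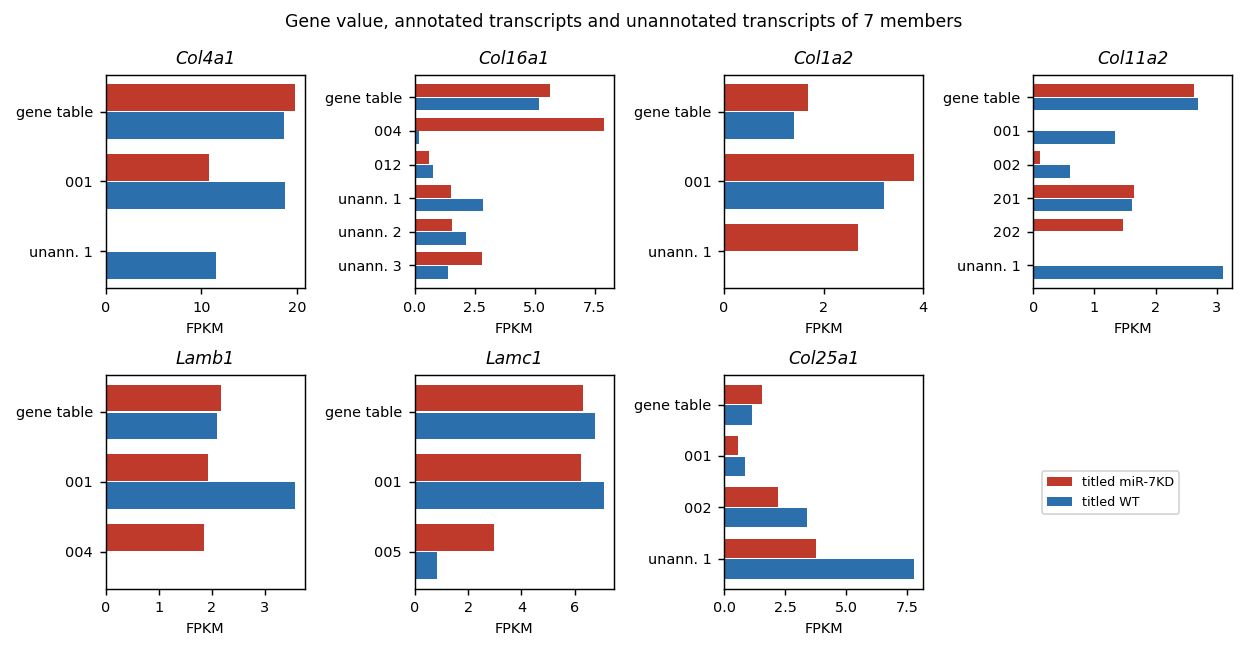
FPKM on linear axes in the miR-7KD-titled library (red) and the WT-titled library (blue) for 7 members: the gene value, each annotated transcript by its number, and same-strand unannotated transcripts (unann.). Gene values of Col4a1, Col16a1, Col11a2, Lamb1 and Lamc1 are close in both libraries, while single transcripts such as Col16a1-004 (7.91 against 0.194) and Lamb1-004 (1.85 against listed at 0) differ widely.

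When annotated transcripts were summed per gene, 33 members reached 1 FPKM. Of these 2 were higher, among them Col16a1 at 8.52 and 0.941, and 2 lower (Col26a1 and Col27a1), against 12.9% of all genes. When same-strand unannotated transcripts were added to the gene value instead, 2 of 27 members were higher and 2 lower, against 13.5% of all genes. The higher were Col20a1 at 7.92 and 2.26 and Col1a2 at 4.37 and 1.41. The lower were Col11a2 at 2.62 and 5.80 and Col19a1 at 98.2 and 238. The added Col19a1 entries also cover 8 pseudogenes and are uncertain as Col19a1 RNA, and those of Col20a1 begin in Arfgap1. Such sums may count reads again that the gene value already holds. No gene was called by both sums. The log2 ratio was positive for 21 of the 33 members by transcript sums. With unannotated transcripts added it was positive for 17 of the 27, against 20 of the 27 by gene value. The deposited gene value and the sum of its transcripts lay within 10% of each other in 14 of 40 members in each library (35%), against 41.2% and 41.5% of all genes, so the gene table is not a plain sum of the transcript table.

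Genes that act on the same proteins were read from lists of related genes. Of basement membrane partners, 14 reached 1 FPKM, 0 were higher and 0 lower, and the median log2 ratio was -0.06, with Sparc, a collagen-binding matricellular protein, at 90.7 and 102 FPKM and the heparan sulphate proteoglycan Agrn at 17 and 17.1. Of receptors, 9 reached 1 FPKM with 0 higher and 0 lower and a median of 0.07, among them the shared integrin chain Itgb1 at 19.2 and 18.8 FPKM and the collagen-binding kinase Ddr1 at 14.4 and 13.4.

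Of genes of collagen synthesis and crosslinking, 25 reached 1 FPKM, 0 were higher and 1 was lower, and the median was 0.02. Ppib, which folds procollagen, was at 93.8 and 75 FPKM and P4hb, a subunit of prolyl 4-hydroxylase, at 40.5 and 41.1. The 1 lower gene was Lox, the enzyme that starts crosslinking of collagen and elastin, at 0.571 and 1.49 FPKM (log2 ratio -1.24). Of collagen-binding proteoglycans, 6 reached 1 FPKM and 1 was lower, namely Lum, the keratan sulphate proteoglycan lumican, at 0.375 and 1.19 FPKM, whereas Dcn was at 20.4 and 23.6.

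Among 16 matrix proteases and inhibitors at 1 FPKM, 1 was higher and 1 lower, both of them inhibitors of metalloproteinases. Timp2 was at 59.6 FPKM in the miR-7KD-titled library and 5.38 in the WT-titled library, and Timp3, which binds to the matrix, at 3.18 and 24.3. The log2 ratios were 3.45 and -2.90, in opposite directions, and the median of the list was -0.03. With so few genes per list, these counts are given beside the 11.6% of all genes as a description. That share depends on the number of exons and was 36.1% for genes of 1 to 3 exons. Lum has 3 exons, Timp2 and Timp3 have 5 each, and Lox has 8. Whether the lists differ from other genes with as many exons was not tested.

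**Figure D5:**
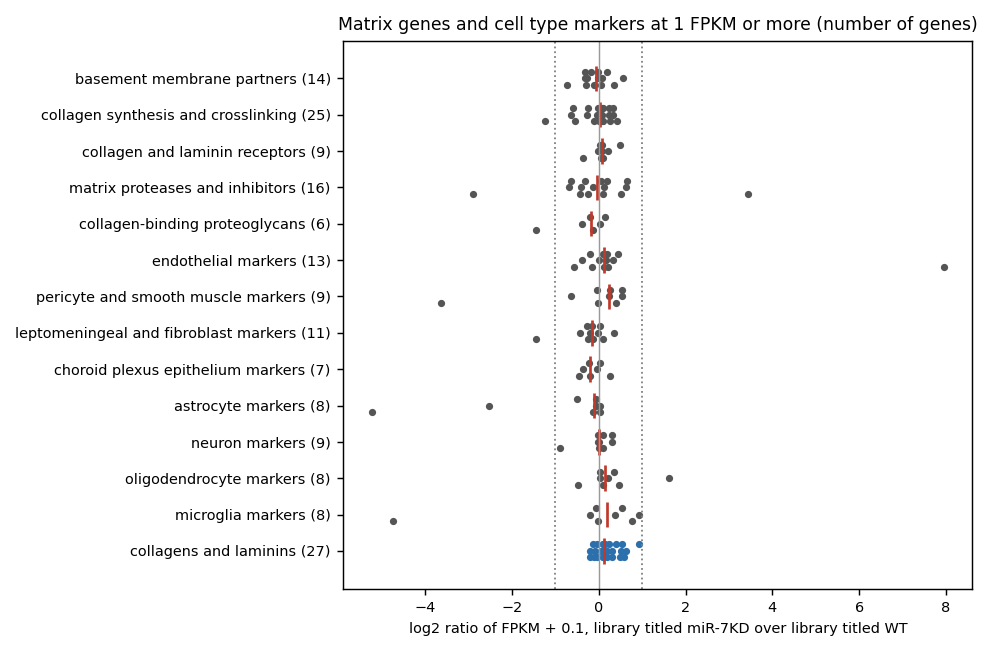
Log2 ratio of FPKM + 0.1, miR-7KD-titled over WT-titled library, for lists of matrix genes, markers of cell types and the members (blue points), with the number of genes at 1 FPKM or more in brackets. Red ticks are medians and dotted lines mark a 2-fold difference. The medians of all lists lie between -0.20 and 0.24, and single genes such as Cldn5, listed at 0 in the WT-titled library and drawn at 7.95 with the added 0.1, Timp2, Timp3 and Rgs5 lie far out.

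Markers of the cells that make the brain's basement membranes did not move as 1 group. The 13 endothelial markers at 1 FPKM or more had a median log2 ratio of 0.12, the same as the members, and the 15 listed summed to 139 and 111 FPKM. Cldn5, a tight junction protein, was at 24.7 FPKM in the miR-7KD-titled library and listed at 0 in the WT-titled library, and makes up nearly the whole of that gap. The 9 pericyte and smooth muscle markers had a median of 0.24 but a lower sum, 45.7 against 59.4 FPKM, with Rgs5 at 1.60 and 21.1. The 11 leptomeningeal and fibroblast markers had a median of -0.15 and sums of 389 and 457 FPKM, and Lum was the 1 lower gene. Choroid plexus markers had a median of -0.20 and sums of 474 and 483 FPKM, led by Ttr at 392 and 403.

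Of the parenchymal cells, 8 astrocyte markers had a median of -0.10, with 2 genes lower (Slc1a2 at 24.5 and 141, Gja1 at 1.15 and 46.5), and summed to 416 and 607 FPKM. Neuron markers had a median of 0.01 and sums of 740 and 744 FPKM, with 0 genes past 2-fold. Oligodendrocyte markers had a median of 0.15 and sums of 482 and 446 FPKM, with Sox10 higher at 12.3 and 3.92. Microglia markers had a median of 0.18 and sums of 109 and 114 FPKM, with Cx3cr1 lower at 0.0172 and 3.03. Apart from Cldn5, no listed marker was at 0 in either library. Most markers counted as past 2-fold have few exons, a kind of gene that passed 2-fold more often over all genes. Cldn5 has 1 exon, Gja1, Cx3cr1 and Lum have 3 each, Rgs5 and Sox10 have 5 each, and Slc1a2 has 11. The part of these cell types in the ratios of the collagens and laminins was not tested.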

How the data were processed

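Brain RNA of 2 libraries was used, 1 per title. The authors deposited FPKM per protein-coding gene (13381), protein-coding transcript (23374) and unannotated transcript (10238). The submitters' processing notes name Bowtie 0.12.2 and mm8, while the positions are those of GRCm38, and the sources used here name no program for FPKM. The study's text speaks of a cDNA chip, but the values are FPKM. Read counts and depth are unknown, so neither counting errors nor a test could be given.

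Columns were assigned by the animal number in the titles. Log2 ratios of FPKM + 0.1 were taken for genes that reached 1 FPKM in either library, which understates the change of low genes. Differences of at least 2-fold were counted for the members and over all genes. Unannotated transcripts were joined to members by overlap and strand, exons came from GENCODE M21 and promoters from RefSeq (GRCm38.p6). Python 3.11.15, numpy 2.4.6, pandas 2.3.3 and matplotlib 3.10.9 were used, and the counting was tested on simulated data.

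The members, the 13 lists (191 entries) and all rules were chosen with earlier results of these data known. Values were to be printed for every member at least 2-fold different and for the 12 with the highest mean. Of each list, up to 3 genes at least 2-fold different and up to 3 of the highest mean could be named. Other members were named by role, for their ratio or for their closeness to the minimum level, after their values were seen. Values of 1 member are not reported here on their own, and it is counted only in sums, medians and counts. Tables of unannotated genes were not used.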

Additional observations from a re-analysis of the deposited data

How the results depend on the processing

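With a pseudocount of 0.01 in place of 0.1, 1 member was higher. Sums of annotated transcripts gave 2 higher and 2 lower, and adding same-strand unannotated transcripts also gave 2 higher and 2 lower, against 0 and 0. The median of other collagens, 0.246, was 0.138 with no minimum level and 0.122 at a minimum of 5 FPKM, where no fibrillar collagen was left and no value could be given. The other alternatives (a pseudocount of 1, a minimum of 2 FPKM, a 3-fold threshold, values rescaled by the median log2 ratio of all genes, -0.0109, genes at 0 left out) left the counts at 0 and moved no class median by 0.1 or more. The median of all members ranged from 0.0903 to 0.136 over all alternatives. Of the 27 members, 10 moved by 0.1 or more on the log2 scale with transcript sums and 4 with unannotated transcripts added, beside those that passed 2-fold, and 7 with a pseudocount of 1. No paired analysis was possible because each title has 1 library. Without read counts the precision of low values is unknown, and 13 of the 40 members were below 1 FPKM in both libraries.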
